A study of Mus musculus with 40 samples.

Results

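Srsf1, Srsf2, Srsf3, Srsf4, Srsf5, Srsf6, Srsf7, Srsf9, Srsf10 and Srsf11 encode serine/arginine-rich (SR) splicing factors. These 10 genes were taken by symbol from a table of 43346 genes, and all 10 were among the 21253 genes that passed a filter on low counts. The set was selected with measured values of these mice known, and which comparison was used is not recorded. The comparison of Hom and WT mice in the non-amyloid cohort, in which Srsf5 was 1 of the 7 genes called, was treated as the one used and is given as a description, with no test. RNA was sequenced from the cortex of 40 mice, 10 in each of 4 groups, with 5 females and 5 males in each group. The non-amyloid WT and non-amyloid Hom mice were 6 months old and carried no amyloid transgene, and Hom mice were homozygous for the Trem2 H157Y knock-in allele, made by CRISPR/Cas9 in B6/CBA zygotes. The line used by default descended from 1 founder. The amyloid WT and amyloid Hom mice were 8.5 months old and in addition hemizygous for 5xFAD, an amyloid model whose transgenes are driven by the neuronal Thy1 promoter. Age and the transgenes therefore changed together between the cohorts, and their parts cannot be told apart.

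SR proteins bind exonic enhancers in pre-mRNA through RNA recognition motifs and recruit the spliceosome through arginine/serine-rich domains, which SRPK and CLK kinases phosphorylate. Several of them shuttle to the cytoplasm and carry mRNA out of the nucleus. Most SR genes hold a conserved poison exon or a retained intron in some transcripts, through which the proteins limit their own mRNA by nonsense-mediated decay. In the mouse annotation of GENCODE vM21, 9 of the 10 genes had a transcript annotated as subject to nonsense-mediated decay, Srsf10 being the exception, against 20.9% of 21474 protein-coding genes. A retained-intron transcript was annotated for 8 of the 10, and the share of all protein-coding genes with one was not counted. Counts were made per gene, so productive and decay-prone transcripts were added together.

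The bases before the start of 3 genes are shown because Srsf3 and Srsf7 varied together from mouse to mouse while Srsf5 did not follow them. Each line gives 250 bases of GRCm38.p6 upstream of a RefSeq start, 5′ to 3′ on the gene's strand, and capitals mark matches, on either strand, to 3 promoter motifs. The GC box was searched as the letters GGGCGG. The CCAAT box was searched under its own letters. The TATA box was searched as the letters TATAAA.
Srsf5, chr12:80945249-80945498, plus strand: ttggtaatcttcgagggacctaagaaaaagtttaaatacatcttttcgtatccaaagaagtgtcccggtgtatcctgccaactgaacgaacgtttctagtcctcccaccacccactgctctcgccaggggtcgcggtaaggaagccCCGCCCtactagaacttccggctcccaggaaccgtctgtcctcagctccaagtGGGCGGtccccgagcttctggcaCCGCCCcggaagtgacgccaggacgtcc
Srsf3, chr17:29032410-29032659, plus strand: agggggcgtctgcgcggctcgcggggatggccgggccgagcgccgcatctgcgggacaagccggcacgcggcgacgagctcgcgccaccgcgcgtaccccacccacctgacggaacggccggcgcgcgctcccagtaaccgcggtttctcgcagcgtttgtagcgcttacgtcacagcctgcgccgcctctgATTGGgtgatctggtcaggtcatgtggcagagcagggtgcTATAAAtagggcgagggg
Srsf7, chr17:80207306-80207555, minus strand: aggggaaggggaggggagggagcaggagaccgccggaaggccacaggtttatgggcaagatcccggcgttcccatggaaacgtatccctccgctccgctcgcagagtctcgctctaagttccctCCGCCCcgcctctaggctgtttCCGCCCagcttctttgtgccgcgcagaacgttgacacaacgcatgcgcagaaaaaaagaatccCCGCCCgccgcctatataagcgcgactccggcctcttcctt
The Srsf5 window held 3 GC boxes, the Srsf7 window 3 GC boxes and the Srsf3 window 1 CCAAT box and 1 TATA box. The GC box was found before 9 of the 10 genes, all except Srsf3, and in 32.74% of 32851 promoters of the same length. The 10 genes had 13 promoters and were counted by gene, while the shares over all promoters were counted by promoter. The CCAAT box was found before 3 of the 10 genes and in 33.85% of promoters, and the TATA box before 2 and in 12.37%. The E-box, searched as CACGTG, was found before none of the 10 and in 6.021% of promoters. The cAMP response element, searched as TGACGTCA, was found before none of them and in 1.546% of promoters. These are exact matches of letters, so near matches were not counted, such as TATATAA close to the end of the Srsf7 window. Binding was not measured here.

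Srsf5 lies on chromosome 12 from base 80945504 to 80950507 on the plus strand of mm10. Srsf3 and Srsf7 lie on chromosome 17, which also holds Trem2, at 19.31 Mb and 31.85 Mb from the start of Trem2. Exons of Srsf1, Srsf2 and Srsf4 overlap exons of genes on the opposite strand, by 1532 bases or 43.0% of the exonic length for Srsf4 and Gm12992, by 460 and 288 bases for Srsf2 with Mettl23 and Mfsd11, and by 98 bases for Srsf1 with Gm11508. No such overlap was found for Srsf5.

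Total counts per library were 41646271 to 105903846, and the members had 1117 to 40745 counts each. The counting error of a member in a library was therefore at most 2.99%, and 0.725% for Srsf5. The shallowest library, amyloid Hom replicate 19, had 0.617% of its counts on 569 genes that lie mainly opposite a more abundant gene, against 0.0144% to 0.0191% in the other 39 libraries. It was kept, and Srsf5 values that moved without it are given both ways. Trem2 was at 10.7 ± 2.13 CPM (counts scaled to a normalized library of 1000000 counts, SD, n = 10) in non-amyloid WT and at 10.4 ± 1.59 CPM in non-amyloid Hom. In the amyloid cohort Trem2 was at 62.2 ± 24.4 CPM in WT and 33.9 ± 10.3 CPM in Hom. The knock-in changes a codon, so these levels do not check the genotype labels.

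Srsf5 was the most abundant of the 10 transcripts per length. Scaled to exonic length, Srsf5 was at 88.9 ± 11.4 CPM per kb (SD over 40 mice) and Srsf7, an mRNA export adaptor with a zinc knuckle, at 55.3 ± 7.12. Srsf5 exceeded Srsf7 in 40 of 40 mice. The next levels per kb were 41.1 ± 4.80 for Srsf2, 36.6 ± 4.80 for Srsf1, 31.9 ± 4.02 for Srsf3 and 27.2 ± 2.45 for Srsf6. Srsf11 stood at 24.6 ± 2.57 CPM per kb, Srsf9 at 19.5 ± 1.74, Srsf10 at 12.97 ± 2.08 and Srsf4 was lowest at 8.96 ± 1.13. Each gene exceeded the next in this order in at least 37 of 40 mice, although the ranges over all mice of each pair of neighbours overlapped. The order of the group means was the same in all 4 groups. The 10 transcripts summed to 1501 ± 128 CPM in non-amyloid WT, 1366 ± 77.9 in non-amyloid Hom, 1383 ± 151 in amyloid WT and 1468 ± 130 in amyloid Hom (SD, n = 10 each). Srsf5 made up 26.8% ± 2.28 of that sum in non-amyloid WT and 24.7% ± 1.43 in non-amyloid Hom.

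Srsf5, an enhancer-binding splicing activator with a pair of RNA recognition motifs, was at 377 to 421 CPM in the 10 non-amyloid WT mice, with a median of 404. In the 10 non-amyloid Hom mice it was at 324 to 361 CPM, with a median of 334. Every Hom mouse was below every WT mouse in females and in males alike. Means were 401 ± 13.9 and 336 ± 10.6 CPM (SD, n = 10), a log2 fold change of -0.25 (SE 0.03), so that Hom mice were at 0.840 of the WT level. Of the 10 members Srsf5 was the 1 called in this comparison, against 0.0329% of all genes tested (7 of 21253), and the 1 whose groups did not overlap, against 0.0188% of all genes. A gene was called when its p, adjusted by Benjamini-Hochberg, was below 0.05 and its log2 fold change beyond 0.25 in either direction. Srsf5 stood just past that fold limit and had the smallest fold change of the 7 genes called, and the member nearest outside it was Srsf7 at -0.14. The call was lost in 8 of 20 fits that left out a library and in 1 fit of all 40 libraries.

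**Figure D1:**
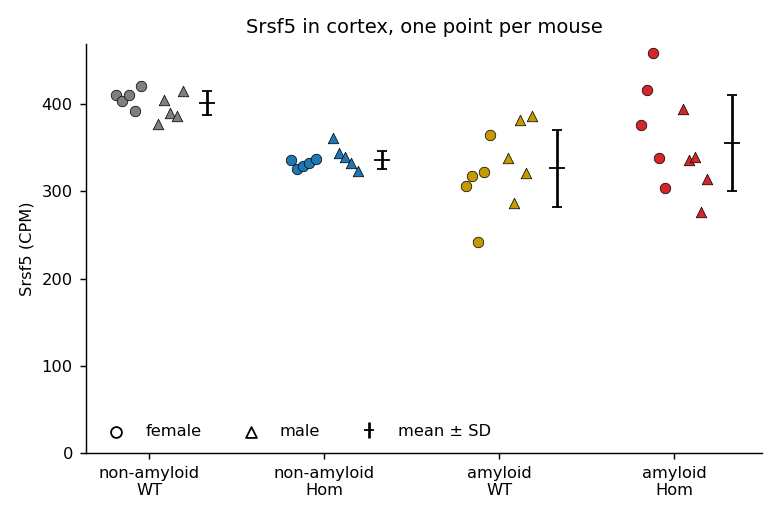
Srsf5 in CPM (vertical axis) in each of 40 mice by group (horizontal axis), with circles for females, triangles for males, and the mean with its SD (n = 10) beside each group. The non-amyloid Hom mice lie between 324 and 361 CPM, all below the non-amyloid WT mice at 377 to 421, while the amyloid groups overlap and spread more widely.

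In the amyloid cohort Srsf5 was not called and its mean was higher in Hom. It was at 242 to 386 CPM in amyloid WT mice, with a median of 321, and at 277 to 458 CPM in amyloid Hom mice, with a median of 338. The groups overlapped, and the highest value was that of amyloid Hom replicate 19. Means were 326 ± 44.0 and 355 ± 55.3 CPM (SD, n = 10). The log2 fold change was 0.12 (SE 0.09, 95% interval -0.05 to 0.30, edgeR quasi-likelihood adjusted p = 0.657), and 0.08 without replicate 19. With libraries weighted by quality in limma-voom it was 0.03. None of the 10 members was called in this comparison, against 0.0753% of all genes (16 of 21253), and none was under an unadjusted p of 0.05, against 9.67% of all genes. DESeq2 and limma-voom called none of the 10 either. None of the 10 had groups that did not overlap, against 0.00941% of all genes.

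The other 9 members are grouped here by what they do. Srsf3 and Srsf7 are small SR proteins that couple splicing to mRNA export. Srsf3 was at 170 ± 21.9 CPM in non-amyloid WT and 155 ± 13.1 in non-amyloid Hom (SD, n = 10), and at 159 ± 23.9 in amyloid WT and 169 ± 20.4 in amyloid Hom. Srsf7 was at 133 ± 14.8, 121 ± 13.3, 121 ± 20.2 and 130 ± 14.2 CPM in the same order of groups. The log2 fold changes of Hom over WT were -0.13 and -0.14 in the non-amyloid cohort, and 0.10 (SE 0.08) and 0.11 (SE 0.09) in the amyloid cohort.

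Srsf1, the classic factor of constitutive splicing, and Srsf2, a speckle protein that activates exon inclusion, showed the same arrangement of means. Srsf1 was at 213 ± 31.9 CPM in non-amyloid WT, 196 ± 18.8 in non-amyloid Hom, 204 ± 30.5 in amyloid WT and 222 ± 23.8 in amyloid Hom. Srsf2 was at 129 ± 17.2, 120 ± 8.29, 115 ± 14.3 and 122 ± 14.1 CPM. Srsf10 encodes a factor that represses splicing once it is dephosphorylated in heat shock, and was at 93.2 ± 16.8, 85.2 ± 8.53, 87.8 ± 14.4 and 97.0 ± 16.04 CPM. For these 3 genes the difference between Hom and WT was smaller than the SD of the WT group in both cohorts.

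Srsf6 and Srsf4 resemble Srsf5 in domain structure. Srsf6 was at 132 ± 11.6 CPM in non-amyloid WT, 124 ± 10.3 in non-amyloid Hom, 133 ± 14.1 in amyloid WT and 135 ± 9.09 in amyloid Hom. Srsf4 was at 31.6 ± 4.79, 32.8 ± 3.74, 32.4 ± 4.43 and 30.8 ± 3.24 CPM. Srsf11 was at 174 ± 19.9, 169 ± 15.5, 178 ± 20.4 and 181 ± 17.8 CPM, and Srsf9, a relative of Srsf1, at 25.9 ± 2.01, 26.9 ± 2.28, 27.2 ± 3.33 and 25.9 ± 1.58 CPM. For each of the 9 genes the ranges of Hom and WT mice overlapped in both cohorts. In the amyloid cohort their adjusted p values were 0.637 to 0.901 (edgeR quasi-likelihood test, adjusted over all genes).

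**Figure D2:**
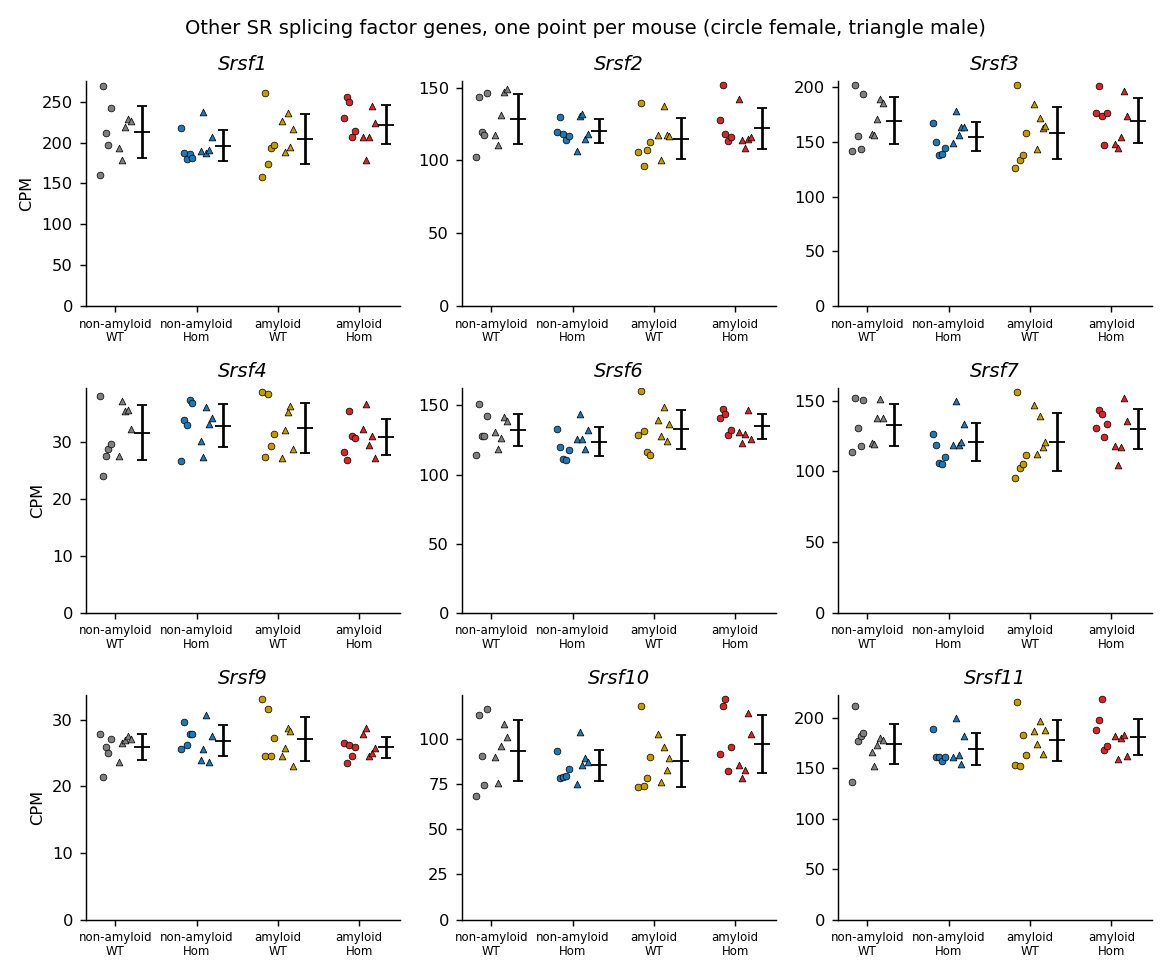
The other 9 genes in CPM (vertical axes from 0) in each of 40 mice by group, with the mean and SD (n = 10) at the right of each group. Hom and WT mice overlap for all 9 genes in both cohorts.

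The sign of the Hom over WT difference was opposite in the 2 cohorts for 10 of the 10 members. The amyloid value of Srsf11 turned to -0.0024 without amyloid Hom replicate 19 and to -0.015 under limma-voom, which leaves 9 of the 10. The sign was also opposite for 58.7% of all genes tested and for 63.1% of those with a mean of at least 5 CPM, and most members are correlated with each other, so they do not count as separate observations. The median log2 fold change of the 10 members was -0.10 in the non-amyloid cohort, against -0.0031 over all genes, and 0.09 in the amyloid cohort, against 0.0014. Srsf4 and Srsf9 were the 2 members with a positive value in the non-amyloid cohort and a negative one in the amyloid cohort.

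**Figure D3:**
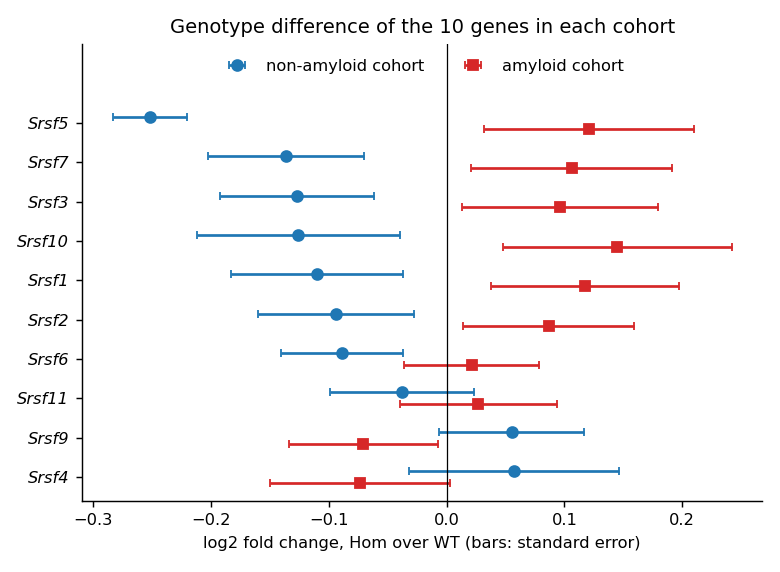
Log2 fold change of Hom over WT (horizontal axis) for the 10 genes in the non-amyloid cohort (circles) and the amyloid cohort (squares), with standard errors as bars. Srsf5 is at -0.25 in the non-amyloid cohort and at 0.12 in the amyloid cohort, and the sign differs between cohorts for all 10 genes, Srsf11 excepted when amyloid Hom replicate 19 is left out or limma-voom is used.

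The difference of the genotype effects between cohorts was fitted as an interaction over the 40 mice. For Srsf5, treated as chosen on the non-amyloid mice, the interaction was 0.38 on the log2 scale (SE 0.10), given without a test. No member was called, and no gene at all was (0% of 21253). At an unadjusted p under 0.05 stood 4 of the other 9 members, against 10.3% of all genes. They were Srsf7 (0.25, SE 0.11), Srsf3 (0.23, SE 0.11), Srsf1 (0.23, SE 0.11) and Srsf10 (0.27, SE 0.14), and the smallest adjusted p among the 9 was 0.454 (edgeR quasi-likelihood test). These 4 genes are correlated with each other across mice, so they do not count as separate observations. DESeq2 and limma-voom called none. The comparison shares the non-amyloid mice with the one treated as choosing the set.

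Between the cohorts, WT mice differed in Srsf5 by -0.30 on the log2 scale (SE 0.06), from 401 to 326 CPM, a comparison that uses the non-amyloid WT mice again. The Srsf5 value is therefore a description, with no test. Srsf5 was the 1 member past the limits for a call there, against 7.31% of all genes, and nothing is read from that count. The other 9 members were at -0.16 to 0.07, with no adjusted p below 0.264 (edgeR quasi-likelihood test). Among Hom mice Srsf5 differed between the cohorts by 0.06 (SE 0.07), from 336 to 355 CPM, and by 0.02 without replicate 19. No member was called among Hom mice, against 5.83% of all genes, and 3 of the other 9 had an unadjusted p under 0.05, against 24.4% of all genes. These were Srsf1 (0.16, SE 0.06), Srsf6 (0.11, SE 0.05) and Srsf10 (0.17, SE 0.08), with adjusted p values of 0.117, 0.169 and 0.189 by edgeR's quasi-likelihood test, and DESeq2 and limma-voom called none. The 3 genes are correlated with each other across mice and do not count as separate observations.

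Markers of other cell types moved with the cohorts. All 12 microglial markers of a fixed list were called higher in amyloid WT than in non-amyloid WT, their summed level rising from a range of 370.1 to 506 CPM to one of 763 to 1779 CPM, with none at 0. Of 9 astrocyte markers 3 were called higher and of 9 neuronal markers none was called, against 7.31% of all genes called in that comparison. Among Hom mice 11 of 12 microglial, 2 of 9 astrocyte and 1 of 8 oligodendrocyte markers were called higher in the amyloid cohort. Of 8 markers of other brain regions 1 was called lower. Of the 9 neuronal markers 7 were lower, 5 at an unadjusted p under 0.05 against 24.4% of all genes, and 1, Rbfox3, was called. The share of all genes called among Hom mice was 5.83%. In the amyloid cohort all 12 microglial markers had lower means in Hom than in WT, and their sum was at 589 to 1038 CPM in Hom. Of these markers 11 had an unadjusted p under 0.05, against 9.67% of all genes, and none was called, against 0.0753%. In the non-amyloid cohort, treated as the one in which Srsf5 was chosen, the microglial sum was at 410.0 to 475 CPM in Hom against 370.1 to 506 in WT. The neuronal sum was at 11039 to 12695 CPM in Hom against 10470 to 12041 in WT. No marker of microglia, astrocytes, oligodendrocytes, neurons, endothelial cells, erythroid cells or other brain regions was called between genotypes in either cohort. The part of cell make-up in the Srsf5 values was not tested. In bulk tissue, fewer cells of a type and less RNA per cell cannot be told apart.

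No member was called between the sexes. The female over male log2 fold changes of the 10 members were -0.06 to 0.02, none was called against 0.358% of all genes, and none was under an unadjusted p of 0.05, against 8.74% of all genes (edgeR, with the 4 groups in the model). DESeq2 and limma-voom called none. For Srsf5 the amyloid cohort showed opposite orders of the means in the 2 sexes. Female means were 310 ± 44.3 CPM in amyloid WT and 378 ± 61.1 in amyloid Hom, and male means were 342 ± 41.9 and 332 ± 42.5 (SD, n = 5 each). The genotype by sex interaction was 0.33 (SE 0.17) with an adjusted p of 0.817 by edgeR's quasi-likelihood test, 0.25 without amyloid Hom replicate 19 and 0.15 under limma-voom. No member was called by edgeR, DESeq2 or limma-voom, 0% of all genes were by edgeR, and no member was under an unadjusted p of 0.05, against 5.29% of all genes.

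The spread of Srsf5 between mice is given for each cohort as a description. Within groups of the non-amyloid cohort the SD of Srsf5 was 0.05 on the log2 CPM scale, against 0.12 to 0.21 for the other 9 members and a median of 0.16 for all genes with a mean of at least 5 CPM. In the amyloid cohort it was 0.21, within the 0.13 to 0.23 of the other 9, and 0.20 without replicate 19. The amyloid over non-amyloid ratio of these SDs was 4.44 for Srsf5, 0.878 to 1.28 for the other members and 1.05 for the median gene, and 0.125% of 12025 genes had a larger ratio. A small spread in the non-amyloid cohort also favours a call there, so this value is tied to the comparison treated as choosing Srsf5 and has no test.

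**Figure D4:**
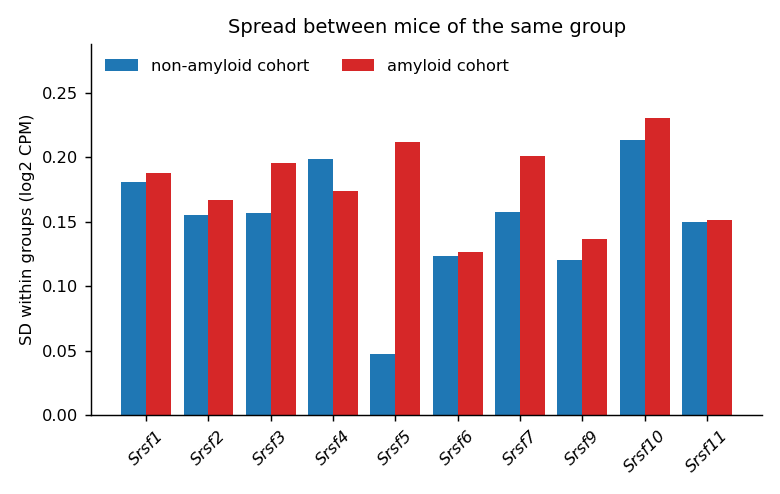
SD of log2 CPM (vertical axis) between mice of the same group for each of the 10 genes, in the non-amyloid cohort (left bars) and the amyloid cohort (right bars), 20 mice each. Srsf5 has the lowest bar, 0.05, in the non-amyloid cohort and a bar of 0.21 in the amyloid cohort.

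Most of the family varied together from mouse to mouse. With group means subtracted, 33 of the 36 pairs without Srsf5 had an adjusted permutation p under 0.05 over the 40 mice. The share of such pairs among all genes was not counted, so the count is not read as particular to the family. Srsf1, Srsf3, Srsf6, Srsf7, Srsf10 and Srsf11, a block named after the values were seen, had pairwise Pearson r of 0.69 to 0.93, with 0.66 to 0.95 in the amyloid cohort and 0.72 to 0.93 in the non-amyloid cohort. Their Spearman rho was 0.65 to 0.94, and r was 0.62 to 0.92 without the 2 mice farthest from the median of the first gene of a pair. The closest pair was Srsf3 and Srsf7 (r = 0.93, Spearman rho = 0.93). Srsf2 correlated with these 6 at 0.64 to 0.72. Srsf4 and Srsf9 correlated with each other at 0.77, and with the 6 at -0.61 to -0.26, so mice high in the block tended to be low in this pair.

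The r of Srsf5 with the other members lay below the 0.69 to 0.93 found within that block. Over the 40 mice its r with the 9 other members was -0.20 to 0.43, and 2 pairs passed a permutation test adjusted over the 9 pairs. These were Srsf2 (r = 0.43, rho = 0.45, raw p = 0.00575 and 0.00435, adjusted p = 0.0324 and 0.0286) and Srsf11 (r = 0.42, rho = 0.42, raw p = 0.00720 and 0.00814, adjusted p = 0.0324 and 0.0286). For Srsf1 rho was 0.41 (raw p = 0.00952, adjusted p = 0.0286), while its r of 0.32 had an adjusted permutation p of 0.135. Without the 2 mice farthest from the median of Srsf5, r was 0.44 for Srsf2, 0.25 for Srsf11 and 0.21 for Srsf1, so the relations with Srsf11 and Srsf1 rest in part on those mice. Without amyloid Hom replicate 19 the r with Srsf11 was 0.32 (adjusted permutation p = 0.197) and that with Srsf2 0.50. With sex means also subtracted neither pair passed, at r = 0.42 for Srsf2 (adjusted permutation p = 0.0714) and 0.35 for Srsf11 (adjusted permutation p = 0.123). Within the amyloid cohort r was 0.60 with Srsf2 and 0.60 with Srsf11 (adjusted permutation p = 0.0223 for both), and within the non-amyloid cohort it was -0.01 and 0.01 (adjusted permutation p = 0.963 for both). The difference between the cohorts was not tested. The permutations over the 40 mice did not keep the cohorts apart. Within groups the SD of Srsf5 was 0.05 in the non-amyloid and 0.21 in the amyloid cohort, so the amyloid mice weigh more in the values over 40 mice.

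**Figure D5:**
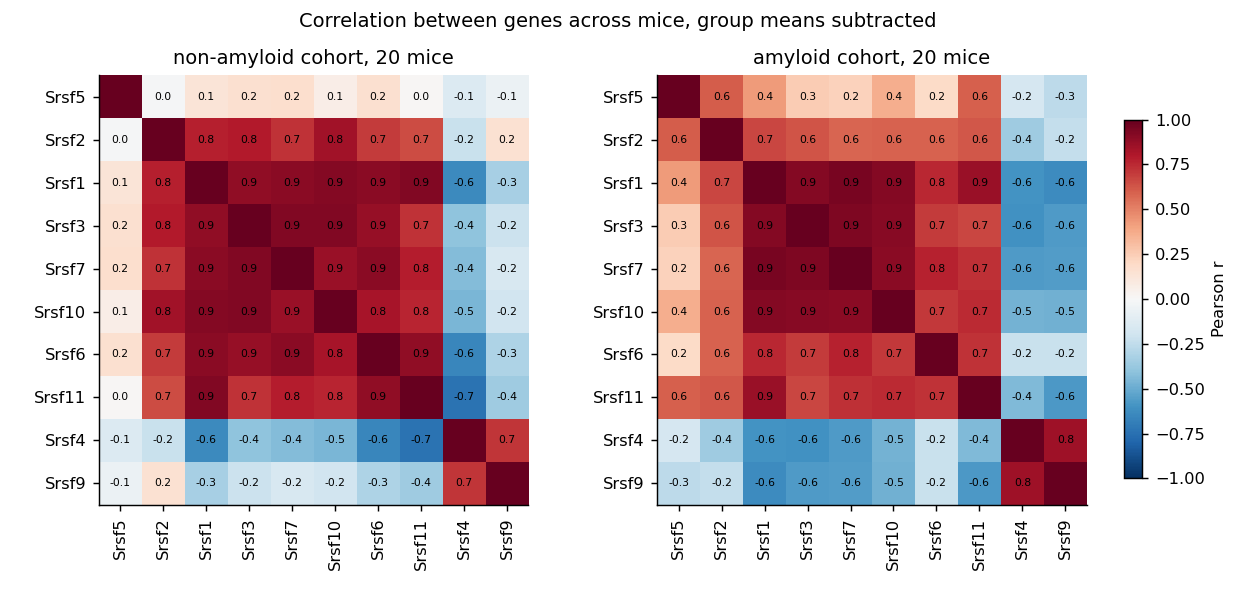
Pearson r between the 10 genes over the 20 mice of each cohort, on log2 CPM with group means subtracted, as colour and number in each cell. Srsf1, Srsf3, Srsf6, Srsf7, Srsf10 and Srsf11 form a block of high values in both cohorts, Srsf4 and Srsf9 run opposite to it, and the Srsf5 row is pale in the non-amyloid cohort.

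A library measure moved with the block. The mean log2 exonic length of genes weighted by counts, 1 value per library, correlated with the 6 block members at r = 0.56 to 0.72 (rho = 0.60 to 0.73) and with Srsf4 and Srsf9 at r = -0.62 and -0.58 (rho = -0.64 and -0.55), with group means subtracted. Among these 8 genes the largest raw permutation p was 0.000150 for r and 0.000350 for rho, or 0.000562 and 0.00117 adjusted over 30 relations of members with library measures. Without the 2 farthest mice the absolute r of these 8 genes was at least 0.50. For Srsf5 r was 0.16 and rho 0.19, with adjusted permutation p values of 0.412 and 0.357. The part of this measure in the correlations was not tested.

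The genes most like Srsf5 were, by Pearson r over the 40 mice among 12024 genes with a mean of at least 5 CPM, Fam204a (0.80), Cep44 (0.79), Wsb1 (0.79), Rsrp1 (0.75), Pnisr (0.75), Agbl3 (0.74), Mbip (0.71), Armcx5 (0.70), Cetn3 (0.70) and Dnajc8 (0.69). No other SR member was among them. Rsrp1 and Pnisr encode arginine/serine-rich nuclear proteins like the SR family itself. For these 10 genes r was 0.75 to 0.91 in the amyloid cohort and 0.12 to 0.46 in the non-amyloid cohort, and 0.60 to 0.76 over 39 mice without replicate 19. Among the 5 most opposed were Mfsd2a (-0.77), the lipid transporter of the blood-brain barrier, Ctnnb1 (-0.75), Rpn1 (-0.74) and Arrb1 (-0.74). In the same order r was -0.82, -0.84, -0.86 and -0.80 in the amyloid cohort, and -0.27, -0.03, -0.19 and -0.35 in the non-amyloid cohort. These values are a description of the same libraries, with no test.

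Of 9 kinases and import factors of SR proteins, 1 was called in any comparison. Clk1, which phosphorylates SR proteins in the nucleus, was at 186 ± 26.6 CPM in non-amyloid WT, 160 ± 19.2 in non-amyloid Hom, 143 ± 32.9 in amyloid WT and 171 ± 16.1 in amyloid Hom (SD, n = 10). It fell by 0.38 on the log2 scale in amyloid WT against non-amyloid WT (SE 0.11, adjusted p = 0.0277, edgeR quasi-likelihood test), where 7.31% of all genes were called. Its Hom over WT log2 fold changes were -0.21 in the non-amyloid cohort and 0.26 in the amyloid cohort, with adjusted p values of 0.965 and 0.342 by the same edgeR test. Srpk2, the most abundant of the list, was at 329 to 352 CPM in the group means and was not called.

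Other splicing genes were called in few comparisons. None of 20 other proteins with arginine/serine-rich domains, 19 hnRNP and PTB proteins or 26 core spliceosome genes was called in any of the 7 comparisons. Over all genes the share called was 0% to 7.31%, depending on the comparison. The most abundant of each list were Srrm2 at group means of 562 to 596 CPM, Hnrnpa2b1 at 541 to 590 CPM and Sf3b1 at 466 to 519 CPM. Their median log2 fold changes of Hom over WT were -0.02, -0.04 and -0.03 in the non-amyloid cohort, against -0.10 for the SR genes, and 0.05, 0.07 and 0.01 in the amyloid cohort, against 0.09. Of 16 neuronal splicing regulators only Rbfox3, also a neuronal marker, was called. It was lower by 0.28 in amyloid Hom than in non-amyloid Hom (SE 0.08, adjusted p = 0.0354, edgeR), where 5.83% of all genes were called. Celf2, the most abundant of the 16, was at 491 to 505 CPM in the group means.

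RNAs that stay in the nucleus were listed beside the splicing genes. Of 8, Neat1, the scaffold of paraspeckles, was called higher in amyloid WT than in non-amyloid WT, at 125 ± 19.4 against 85.6 ± 13.7 CPM (log2 fold change 0.54, adjusted p = 0.000469, edgeR). Kcnq1ot1 was called higher in that comparison (0.39, adjusted p = 0.0450) and among Hom mice (0.49, adjusted p = 0.0236) by the same edgeR test. Of all genes 7.31% were called between the cohorts among WT mice and 5.83% among Hom mice. None of the 8 was called between genotypes. Meg3, the most abundant, had group means of 2605 to 2685 CPM.

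Genes of temperature, time of day and neuronal activity were listed because splicing of SR transcripts is known to respond to temperature and to the state of the cell. None of 10 temperature-responsive genes was called in any comparison, and the most abundant, Hspa8, was at 1414 to 1621 CPM in the group means. Of 14 clock output genes 5 were called lower in amyloid WT than in non-amyloid WT, where 7.31% of all genes were called, and 8 among Hom mice, where 5.83% were. Dbp, a clock-driven transcription factor, was at 62.6 ± 10.5 CPM in non-amyloid WT and 34.6 ± 10.2 in amyloid WT (log2 fold change -0.85, adjusted p = 0.000200, edgeR), and Tef, the most abundant, was at 507 ± 24.3 against 434 ± 28.5 CPM. No clock gene was called between genotypes in either cohort. The time of tissue collection is not given in the sources used here, and the part of these clock values in the Srsf5 difference between cohorts was not tested. Of 12 immediate early genes 3 were called lower in amyloid WT than in non-amyloid WT, Arc among them (-0.93, adjusted p = 0.0382, edgeR), 3 were called lower in females than in males, against 0.358% of all genes called in either direction, and none was called between genotypes. In amyloid Hom against amyloid WT 11 of the 12 were higher in Hom, 8 at an unadjusted p under 0.05 against 9.67% of all genes, with a median log2 fold change of 0.60 against 0.0014 over all genes. The part of neuronal activity in the Srsf5 values was not tested.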

How the data were processed

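Cortical poly-A RNA of 40 mice was sequenced as paired-end reads. The study's methods describe alignment to mm10 with TopHat and Bowtie in MAP-RSeq, whereas the submitters' processing notes list STAR 2.5.2b and featureCounts 1.5.1. The authors deposited raw read counts per gene (whole numbers, with no normalization), and the strand setting is not given in the sources used here. The study left out 1 amyloid Hom female, which it does not name, for a low share of reads counted on genes and for its strandedness check. Replicate 19 is an amyloid Hom female with the lowest total count and the highest share of counts on opposite-strand genes, and may be that library. All 40 libraries were kept, and replicate 19 was left out as an alternative.

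A gene was kept if 4 or more libraries had 10 or more counts (21253 of 43346). Counts were normalized by TMM and compared with edgeR 4.0.16 (quasi-likelihood test, R 4.3.3), each comparison fitted on its own groups, and p values were adjusted over all genes by Benjamini-Hochberg. Calls needed an adjusted p below 0.05 and a log2 fold change beyond 0.25 in either direction. CPM used TMM-adjusted library sizes, and correlations used log2 CPM with a prior count of 2, group means subtracted and 100000 permutations (two-sided, NumPy 2.4.6). Alternatives were DESeq2 1.42.0, limma-voom 3.58.1 with quality weights, other scalings, no filter, no fold-change threshold, sex as a covariate, 1 fit of all libraries and each library left out.

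The members, the gene lists and the tests were chosen with earlier results of these data known. Named genes were the 10 members, Trem2, the most abundant member of each splicing, nuclear RNA, temperature, clock and activity list with up to 4 of its called members by lowest p, and the 10 most alike and 5 most opposed genes to Srsf5, of which 1 is not reported here. Mice of a group were separate animals.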

Additional observations from a re-analysis of the deposited data

How the results depend on the processing

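No paired analysis was possible. The paper describes cohorts of littermates, but the sample labels do not give the litter of a mouse. The replicate numbers run from 1 to 40 and no 2 groups share one, so they do not give pairs either. In the amyloid cohort none of the 10 members was called under any alternative, and the same holds for the 2 interactions, for Hom mice between cohorts and for sex. In the non-amyloid cohort the number of members called was 0 in 1 fit of all 40 libraries, in which the 4 groups share an estimate of the spread, against 1 in the separate fit, and 0 to 1 with each library left out. In the fit of all 40 the Srsf5 log2 fold change was -0.25, still past the fold limit, so the call was lost on its adjusted p. The number called was 0 without non-amyloid WT replicates 1, 17, 18, 31 or 38 and without non-amyloid Hom replicates 11, 14 or 35, because the Srsf5 log2 fold change, -0.26 to -0.24 over the 20 fits, then fell short of 0.25. In amyloid WT against non-amyloid WT Srsf5, compared there with mice treated as bearing on its choice, was at -0.33 to -0.25 with a library left out. The Srsf5 interaction between genotype and cohort was 0.33 to 0.41 with a library left out and 0.28 to 0.39 otherwise. The correlation of Srsf5 with Srsf2 lost its call with sex means also subtracted (r = 0.42). That with Srsf11 lost it with sex means subtracted (r = 0.35) and without replicate 19 (r = 0.32). That with Srsf4 changed from -0.13 to 0.0059 under scaling by library size alone. Uncalled values near 0 changed sign. Srsf11 in the amyloid genotype comparison was -0.015 under limma-voom and -0.0024 to 0.0617 with a library left out. Srsf5 between the sexes was -0.0044 under limma-voom, -0.00106 in the non-amyloid cohort alone and -0.00796 to 0.0369 with a library left out. The causes were not tested. Depth did not limit the members, which had at least 1117 counts in each library.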

Other observations

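Besides Rsrp1 and Pnisr, a few genes of the splicing and clock lists lay near Srsf5 or opposite to it across mice. With group means subtracted, Luc7l3, an arginine/serine-rich protein of the spliceosome, correlated with Srsf5 at r = 0.66 over 40 mice, at 0.76 in the amyloid cohort and at 0.33 in the non-amyloid cohort. Hnrnpdl, an hnRNP gene with decay-prone transcripts of its own, was at 0.69, 0.80 and 0.02. The lowest values over 40 mice among these lists were those of the clock genes Per2 at -0.58 and Cry1 at -0.56 and of the neuronal splicing regulator Rbfox2 at -0.57. Per2, Cry1 and Rbfox2 were at -0.64, -0.63 and -0.66 in the amyloid cohort, and at -0.32, -0.26 and 0.09 in the non-amyloid cohort. Other clock genes ran the other way over the 40 mice, Dbp at 0.55, Nr1d2 at 0.52 and Ciart at 0.47. Dbp, Nr1d2 and Ciart were at 0.66, 0.64 and 0.54 in the amyloid cohort, but at -0.22, 0.01 and -0.26 in the non-amyloid cohort. These 8 genes were singled out after their values were seen, and the values are given without a test.

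None of the 40 combinations of a member and a group held a mouse that stood apart from the other 9 by Dixon's criterion, which chance alone meets in about 1 of 20 groups. The highest Srsf5 value of the series, 458 CPM in amyloid Hom replicate 19, and the lowest, 242 CPM in amyloid WT replicate 12, were thus not flagged. The lack of a flag does not clear replicate 19, whose share of counts on opposite-strand genes stood apart.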
